A study of Mus musculus with 24 samples.

Results

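Interleukin-1 (IL-1) family genes were followed through mouse macrophages in which the co-repressor genes Ctbp1 and Ctbp2 had been targeted. The 8 genes are Il1a, Il1b and Il18, which encode the cytokines IL-1α, IL-1β and IL-18, the soluble inhibitors Il1rn (IL-1 receptor antagonist) and Il18bp (IL-18 binding protein), the decoy receptor Il1r2, the shared accessory receptor chain Il1rap, and Il1rl1, the receptor for IL-33 that is also called ST2. They were taken by gene symbol, 1 row per gene identifier, from 2 deposited tables of TPM, a transcript abundance scaled to transcript length and library total, and are 8 of the 54414 genes that these tables hold together.

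The study had 24 libraries in 8 groups of 3. Macrophages derived from bone marrow (BMDMs) are primary cells, here from male C57BL6/N mice aged 6 to 12 weeks and grown in medium with L929 supernatant. They received Ctbp2 siRNA, Ctbp1 siRNA or control siRNA, and each of these was then given LPS (100 ng/ml, 4 h) or the PBS vehicle. J774.1, a macrophage line from a female BALB/c mouse, carried either a double knockout of Ctbp1 and Ctbp2 or the wildtype genes, and both of its groups received the same LPS, so that no J774.1 library was unstimulated. An siRNA lowers a transcript without removing it, and the labels do not say whether the knockout cells were 1 clone. Replicates are called biological, but nothing says that they came from separate animals or cultures, so p-values measure the spread between these libraries, which may be technical.

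IL-1α and IL-1β signal through one receptor, IL-1R1, which needs the accessory chain encoded by Il1rap, and the IL-1 receptor antagonist occupies the same receptor without starting a signal. IL-1β and IL-18 are made as precursors that inflammasome caspases cut, whereas the IL-1α precursor is already active. CtBP1 and CtBP2 are paralogous co-repressors that factors bound to DNA recruit to the genes they silence, and LPS, a bacterial wall component, activates macrophages through TLR4, which shares the adaptor MyD88 with the IL-1 receptor.

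Il1a, Il1b and Il1rn lie on chromosome 2, and they carry most of the changes described here, so their promoters are shown. Each window is 300 bases of RefSeq sequence on the build GRCm38.p6, 250 bases before the annotated start and 50 from the start on, written 5′ to 3′ along the gene's strand, with matches to searched motifs in capitals. All 8 genes had a window in RefSeq, 11 windows in all. Il1rn has 3 annotated starts, of which the first and the last are shown, since the middle window overlaps the last.
Il1a, chr2:129309923-129310222, minus strand: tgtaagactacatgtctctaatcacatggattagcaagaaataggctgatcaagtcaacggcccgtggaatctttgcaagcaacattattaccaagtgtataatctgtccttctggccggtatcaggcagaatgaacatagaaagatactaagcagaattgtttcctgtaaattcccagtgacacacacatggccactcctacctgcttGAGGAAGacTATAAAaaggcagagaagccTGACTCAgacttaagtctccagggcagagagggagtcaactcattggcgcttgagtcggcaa
Il1b, chr2:129371090-129371389, minus strand: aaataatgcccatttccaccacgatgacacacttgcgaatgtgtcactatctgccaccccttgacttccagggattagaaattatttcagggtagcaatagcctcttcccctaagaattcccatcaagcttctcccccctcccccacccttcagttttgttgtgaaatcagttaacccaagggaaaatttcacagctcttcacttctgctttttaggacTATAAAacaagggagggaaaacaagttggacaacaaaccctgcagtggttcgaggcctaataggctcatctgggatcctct
Il1rn first start, chr2:24336610-24336909, plus strand: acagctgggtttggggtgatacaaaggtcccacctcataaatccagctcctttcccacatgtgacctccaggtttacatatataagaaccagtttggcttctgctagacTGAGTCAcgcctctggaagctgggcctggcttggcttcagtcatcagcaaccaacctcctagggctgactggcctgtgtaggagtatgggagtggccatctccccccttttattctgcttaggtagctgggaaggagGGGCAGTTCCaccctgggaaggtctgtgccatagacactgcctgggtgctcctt
Il1rn last start, chr2:24345121-24345420, plus strand: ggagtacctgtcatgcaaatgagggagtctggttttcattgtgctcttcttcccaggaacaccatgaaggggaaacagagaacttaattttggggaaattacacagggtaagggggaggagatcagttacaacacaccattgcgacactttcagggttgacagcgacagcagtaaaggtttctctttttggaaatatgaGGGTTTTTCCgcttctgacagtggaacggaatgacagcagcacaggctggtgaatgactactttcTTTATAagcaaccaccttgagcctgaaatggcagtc

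Motifs were searched on both strands, and no 2 of the matches overlapped. The letters TATAAA of a TATA box stand 32 bases before the Il1a start and 31 bases before the Il1b start, and 13.6% of 32851 RefSeq promoter windows hold them. Il1a also has an AP-1 site (TGANTCA, in 7.81% of windows) 12 bases before its start and a PU.1 site (GAGGAAG, in 13.6%) 41 bases before it. The Il1rn windows hold an NF-kB site (GGG and TTCC parted by 3 bases, in 5.56%) at position −4 of the first start and −51 of the last, with an AP-1 site at −141 of the first and a TATA match on the other strand at +14 of the last. Elsewhere, a C/EBP site (TTGCNNAA, in 10.8%) stands at −49 of Il18bp and −34 of the upstream Il1rl1 start, a reversed TATA match at −175 of Il18, and an interferon response element (2 copies of GAAA parted by 2 bases, in 3.44%) at +20 of Il1rap. The Il1r2 window held none of the 6 motifs. These matches describe letters in a window and are not evidence of binding.

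TPM keeps no sequencing depth, so counting error per library is unknown. Between 11548 and 12259 genes reached 1 TPM in BMDM libraries, and between 11581 and 11823 in J774.1 libraries. Ctbp2 was at 12.1 ± 1.70 TPM in Ctbp2 siRNA LPS libraries, against 38.2 ± 1.82 in control siRNA LPS libraries, and at 18.2 ± 1.95 against 52.6 ± 1.41 TPM with vehicle (SD, n = 3). Ctbp1 was at 50.8 ± 4.46 TPM in Ctbp1 siRNA LPS libraries, against 123 ± 7.33 TPM in control siRNA LPS libraries, and at 57.3 ± 1.96 against 138 ± 7.12 TPM with vehicle. In J774.1 double knockout cells Ctbp1 was at 19.9 ± 3.30 TPM, against 161 ± 3.81 TPM in wildtype cells, and Ctbp2 was at 63.1 ± 1.38 against 78.2 ± 3.52 TPM, a smaller drop that does not say how much protein remained. All 8 macrophage markers reached 1 TPM in every BMDM group, with summed levels of 11231 to 14914 TPM, while C1qa was listed at 0 in all J774.1 libraries and Mertk in the wildtype ones, which can be no transcript or a failed estimate. The control siRNA LPS library of replicate 4 stands apart from its group in the IL-1 genes. It had the lowest Il1a (44.8 TPM) and Il1b (1131 TPM) of the 9 LPS libraries of BMDMs, so LPS results of BMDMs that rest on it are given with and without it. Replicate 4 was also lowest in these genes in LPS with Ctbp2 siRNA (186 and 2423 TPM) and Ctbp1 siRNA (101 and 1808 TPM). Leaving it out of control siRNA alone thus takes a low number from 1 group only. In bulk RNA, fewer cells of a type and less RNA per cell cannot be told apart.

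**Figure D1:**
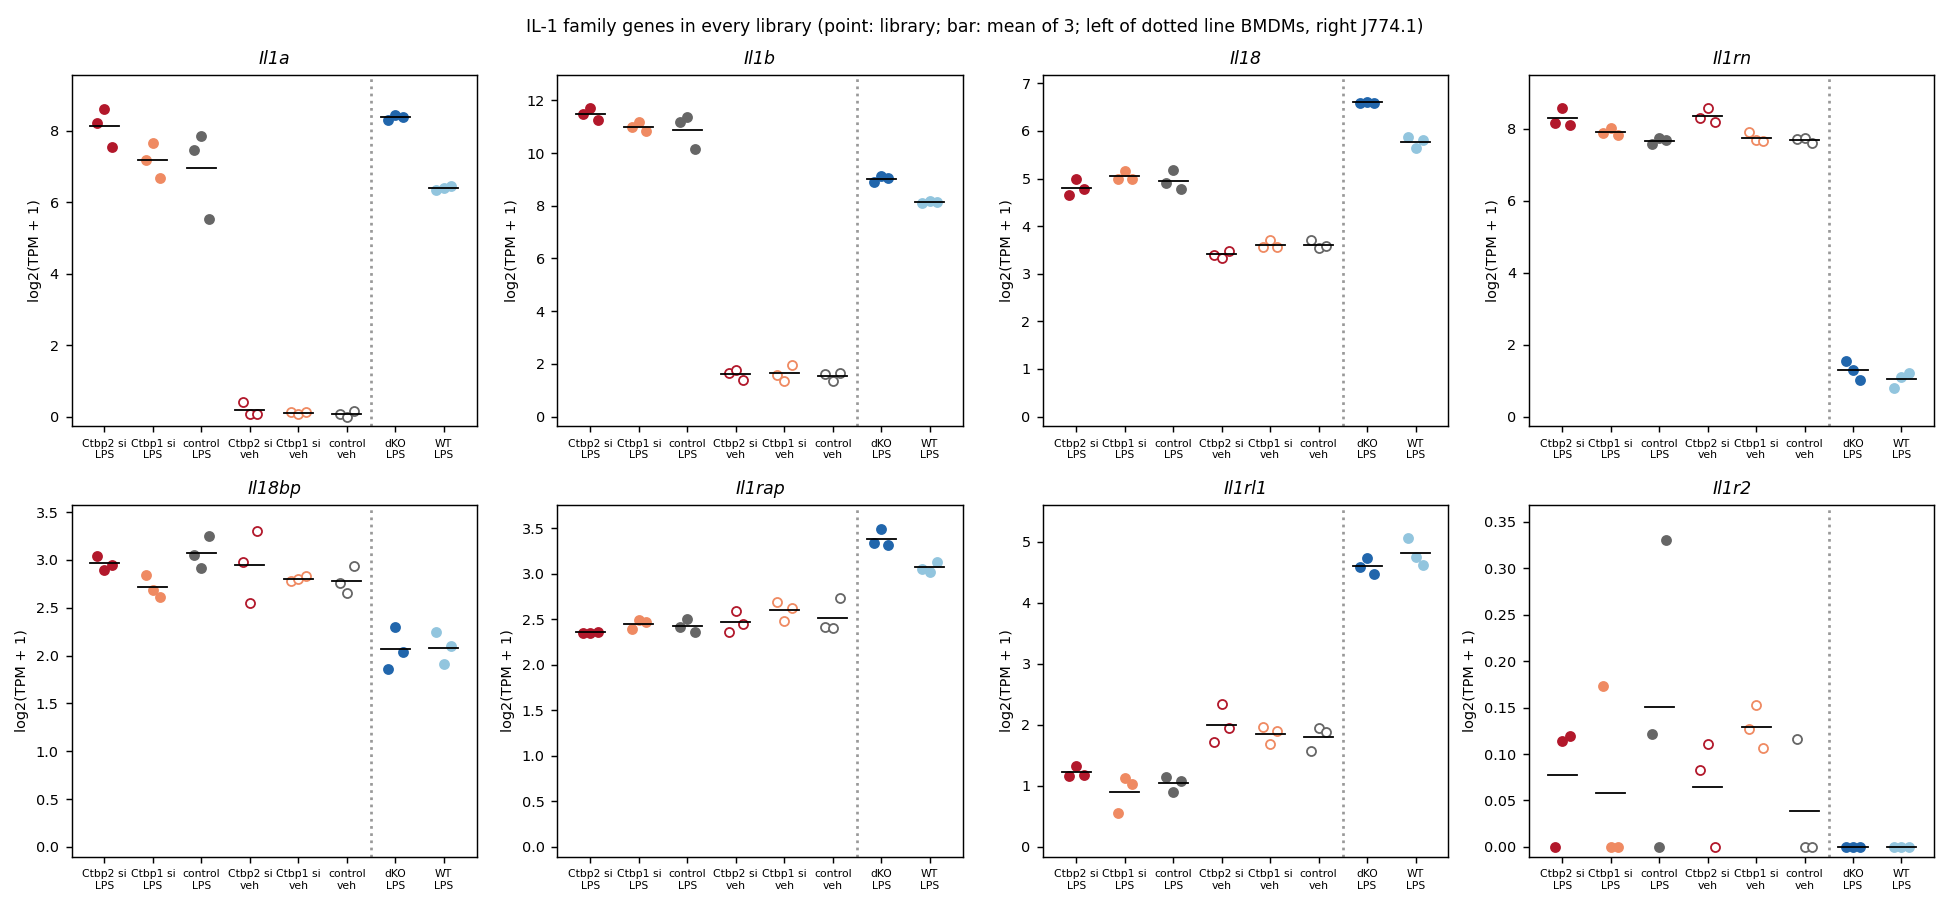
Level of each of the 8 genes in every library, as log2(TPM + 1), with 1 point per library and a bar at the mean of 3, for the 6 BMDM groups (left of the dotted line) and the 2 J774.1 groups (right). Il1a and Il1b are near 0 in vehicle BMDMs and high in every LPS group, whereas Il1rn is at 190.3 TPM or more in every BMDM library and at most 1.90 TPM in J774.1 cells.

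The first question was how the family responds to LPS in each siRNA background, that is, LPS against vehicle. The 3 cytokine genes rose in all 3 backgrounds, Il1b and Il1a by more than any other member, and the ST2 receptor gene Il1rl1 fell in all 3. Il1rn, the gene of the antagonist, was already abundant before LPS. Tests were limma fits on log2(TPM + 1) over the 12146 genes whose mean reached 1 TPM, with calls made at an adjusted p (Benjamini-Hochberg) under 0.05. Of 7 members tested, 3 were called higher and 1 lower in each background, while 73.9% of all tested genes were called in Ctbp2 siRNA cells, 70.5% in Ctbp1 siRNA cells and 72.2% in control siRNA cells. Higher genes were 18.6%, 19.4% and 18.6% of all tested, and lower genes 55.3%, 51.1% and 53.6%, in the same order. Il1a reached the filter only through its LPS libraries and so was bound to differ, and Il1r2 did not reach it, so these counts describe the members and nothing is read from them.

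Il1b (ENSMUSG00000027398), the precursor of the main secreted IL-1 of macrophages, was at 2837, 3385 and 2423 TPM in the LPS libraries of Ctbp2 siRNA cells (replicates 1, 3 and 4), against 2.18, 2.38 and 1.63 TPM in their vehicle libraries. In Ctbp1 siRNA cells it was at 2023, 2336 and 1808 TPM with LPS, against 2.02, 1.57 and 2.92 TPM with vehicle. In control siRNA cells the LPS values were 2291, 2630.1 and 1131 TPM, against 2.03, 1.52 and 2.16 TPM with vehicle. No LPS library came near a vehicle library, and the lowest of the 9 was replicate 4 of the control siRNA. The log2 fold change of Il1b was 9.87 in Ctbp2 siRNA, 9.36 in Ctbp1 siRNA and 9.36 in control siRNA cells, each with a standard error (SE) of 0.260 and with a limma adjusted p of 4.83e-13 in the control background. Without control siRNA LPS replicate 4 the control value was 9.73. Mean TPM was 1396, 948 and 1060 times the vehicle mean in the Ctbp2, Ctbp1 and control siRNA backgrounds.

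Il1a (ENSMUSG00000027399) encodes a precursor that acts as an alarm signal when a cell is damaged. Its LPS values were 298, 387 and 186 TPM in Ctbp2 siRNA cells, against 0.319, 0.0436 and 0.0482 TPM with vehicle. They were 143, 202 and 101 TPM in Ctbp1 siRNA cells, against 0.0998, 0.0416 and 0.0831 TPM with vehicle. Control siRNA cells had 177, 229.8 and 44.8 TPM with LPS, against 0.0446, 0 and 0.122 TPM with vehicle. The gene was thus at 0.319 TPM or less without LPS and at 44.8 TPM or more with it. On the log2(TPM + 1) scale, which understates the change of a gene this low at rest, the fold changes were 7.95, 7.06 and 6.87 in the Ctbp2, Ctbp1 and control siRNA backgrounds, and no p is given because the filter was passed through the LPS libraries. With a pseudocount of 0.1 TPM they were 10.39, 9.69 and 9.69, and without control siRNA LPS replicate 4 the control value was 7.59.

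Il18 (ENSMUSG00000039217), the gene of a cytokine that drives interferon-γ production by lymphocytes, was expressed at rest and rose by a far smaller factor. Ctbp2 siRNA cells had 24.3, 30.8 and 26.5 TPM with LPS, against 9.52, 9.09 and 10.2 TPM with vehicle. Ctbp1 siRNA cells had 30.8, 34.8 and 30.8 TPM with LPS, against 10.9, 12.0 and 10.8 TPM with vehicle. Control siRNA cells had 28.9, 35.1 and 26.4 TPM with LPS, against 12.1, 10.6 and 10.9 TPM with vehicle. LPS and vehicle libraries did not overlap in any background, and the log2 fold changes of 1.41, 1.44 and 1.35 (SE 0.101) lay within each other's error. The mean with LPS was 2.83, 2.87 and 2.69 times that with vehicle in Ctbp2, Ctbp1 and control siRNA cells.

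Il1rn (ENSMUSG00000026981) was the one member of high abundance at rest. Its values were 286, 381 and 276 TPM in the LPS libraries of Ctbp2 siRNA cells, against 311, 379.7 and 289.97 TPM with vehicle. Ctbp1 siRNA cells had 233, 258 and 226 TPM with LPS, against 238, 203 and 199 TPM with vehicle. Control siRNA cells had 190.3, 212 and 206 TPM with LPS, against 208, 212 and 195 TPM with vehicle. LPS and vehicle libraries overlapped in each background, and the log2 fold changes were −0.06 (adjusted p = 0.629), 0.16 (adjusted p = 0.212) and −0.02 (adjusted p = 0.904) in Ctbp2, Ctbp1 and control siRNA cells. The sign and the call depend on scaling: with median-of-ratios scaling across libraries, Il1rn had 0.30 (adjusted p = 0.0312), 0.46 (adjusted p = 0.00221) and 0.31 (adjusted p = 0.0257). The authors' deposited table, fitted with DESeq2, lists 0.30 (adjusted p = 0.0185), 0.46 (adjusted p = 0.000191) and 0.31 (adjusted p = 0.0155), so it has Il1rn higher with LPS in each background.

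That scaling moves the whole distribution. The median log2 fold change of all tested genes was −0.32, −0.26 and −0.29 on the TPM scale in Ctbp2, Ctbp1 and control siRNA cells, and 0.01 in each after scaling. Called genes numbered 2261 higher and 6716 lower in Ctbp2 siRNA cells, 2355 and 6205 in Ctbp1 siRNA cells, and 2258 and 6514 in control siRNA cells, against 4263 and 3960, 4113 and 3774, and 4207 and 3830 after scaling. Il1b (10.19, 9.60 and 9.62), Il1a (8.18, 7.21 and 7.02) and Il18 (1.75, 1.72 and 1.65) rose on both scales. Il1rl1 was lower on both (−0.55, −0.77 and −0.55 after scaling).

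The remaining members were low. Il1rl1 (ENSMUSG00000026069) was at 1.23, 1.51 and 1.27 TPM in Ctbp2 siRNA LPS libraries, against 2.27, 4.09 and 2.87 TPM with vehicle, and at 0.465, 1.19 and 1.05 TPM in Ctbp1 siRNA LPS libraries, against 2.91, 2.20 and 2.75 TPM. In control siRNA cells it was at 1.22, 0.870 and 1.12 TPM with LPS, against 1.96, 2.87 and 2.67 TPM with vehicle. Every LPS value was thus below every vehicle value, and Il1rl1 fell by 0.78, 0.95 and 0.75 on the log2 scale in Ctbp2, Ctbp1 and control siRNA cells, with an adjusted p of 0.00125 in the last. Il18bp, whose protein binds IL-18 and blocks it, lay between 5.12 and 8.52 TPM with LPS and between 4.87 and 8.86 TPM with vehicle, and was not called in any background. After scaling, Il18bp was called higher in Ctbp2 siRNA cells (0.33, adjusted p = 0.0491) and control siRNA cells (0.57, adjusted p = 0.00214), and the authors' deposited table has it higher in control siRNA cells (0.65, adjusted p = 0.00548). Il1rap ranged between 4.09 and 5.64 TPM over the 18 BMDM libraries and was not called on either scale. Il1r2 was at 0.258 TPM or less in all of them and was listed at 0 in 7.

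Marker lists of other cell types were read beside these values. The summed neutrophil markers were 106 to 213 TPM in LPS libraries and 80.9 to 155 TPM in vehicle libraries, led by S100a9. Of these 11 markers, 6 or 7 had a mean of at least 1 TPM in each BMDM group, while Ly6g and Elane were at 0 in most groups. Summed stromal markers were 4.11 to 7.60 TPM with LPS, almost all of it Pdgfrb, and at most 0.168 TPM with vehicle. The 5 mast cell markers in the table summed to at most 1.55 TPM. The part of these markers in the LPS results was not tested. The library kit kept no strand, and exons of the opposite-strand genes Gm14023, Il1bos, Numa1 and Gm20319 overlap those of Il1a, Il1b, Il18bp and Il1rap in the GENCODE vM21 annotation. Il1bos was at 0.274 to 2.71 TPM with LPS and at most 0.0462 TPM with vehicle, far below Il1b. Numa1, at 32.6 to 47.9 TPM with LPS and 92.1 to 109.8 TPM with vehicle, exceeded Il18bp, so Il18bp values are uncertain. Gm14023 was at most 0.405 TPM with LPS, far below Il1a. With vehicle Gm14023 was at 0.0966 to 0.568 TPM and Il1a at most 0.319 TPM, so Il1a values at rest are uncertain too. No level of Gm20319 was listed for BMDMs.

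**Figure D2:**
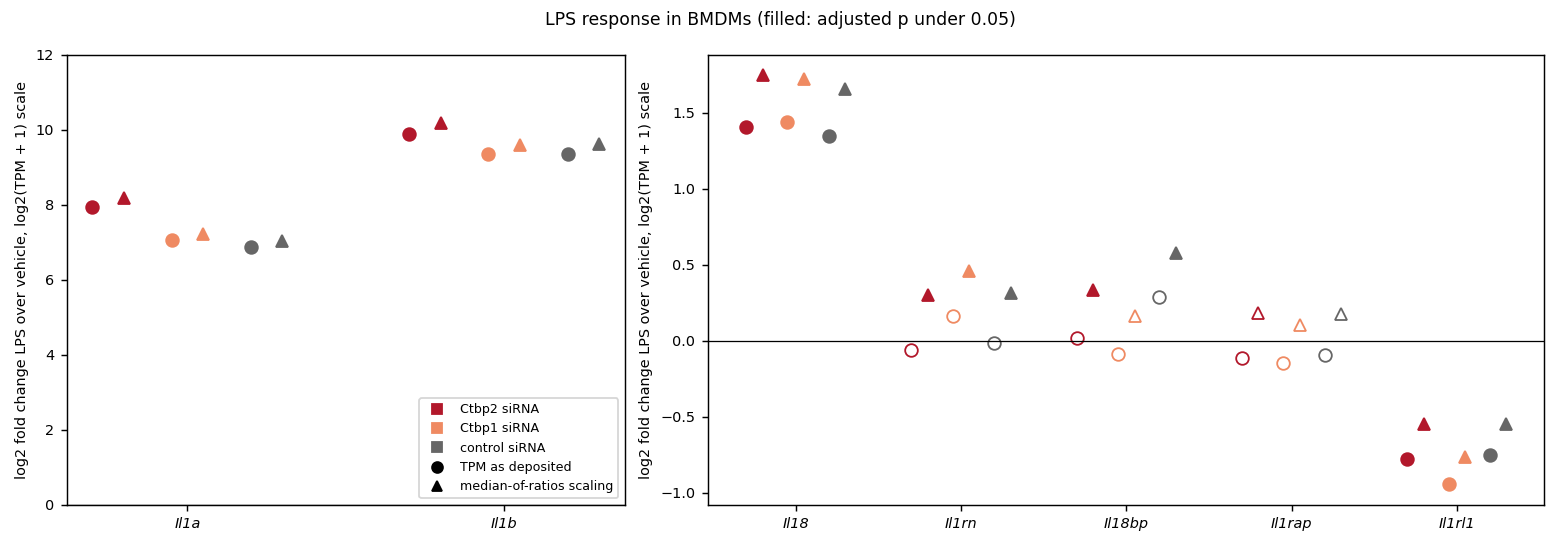
Log2 fold change of each tested member, LPS over vehicle, in BMDMs with Ctbp2, Ctbp1 or control siRNA, on the log2(TPM + 1) scale, for TPM as deposited (circles) and after median-of-ratios scaling (triangles), with filled symbols called at an adjusted p under 0.05. Il1a, Il1b and Il18 are above 0 and Il1rl1 below 0 on both scales, while Il1rn lies at or near 0 as deposited and between 0.30 and 0.46 after scaling.

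The next question was what each siRNA did to the family. Il1rn was the one member called with Ctbp2 siRNA, and it was higher both in LPS and in vehicle cells, by about the same factor. Il1a and Il1b had higher means with Ctbp2 siRNA in LPS but did not pass the test. No member was called with Ctbp1 siRNA. The 2 siRNA groups were each compared with the same control libraries, so their values are given side by side and are not independent.

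In LPS cells, Il1rn averaged 314 ± 58.2 TPM with Ctbp2 siRNA, against 203 ± 11.0 TPM with control siRNA (SD, n = 3), and no library of one group reached the other. Its log2 fold change was 0.62 (95% confidence interval 0.37 to 0.86, adjusted p = 0.0130), a ratio of 1.55, among 1.94% of all tested genes called. In vehicle cells, Il1rn averaged 327 ± 46.8 TPM with Ctbp2 siRNA, against 205 ± 8.87 TPM with control siRNA, again without overlap. There the log2 fold change was 0.66 (0.42 to 0.91, adjusted p = 0.0171), a ratio of 1.59, and 0.568% of tested genes were called. In the authors' deposited table the changes are 0.71 in LPS (adjusted p = 3.73e-07) and 0.72 in vehicle (adjusted p = 2.5e-07). After median-of-ratios scaling they were 0.69 (adjusted p = 0.00607) and 0.71 (adjusted p = 0.0121). Over all genes called with Ctbp2 siRNA, 63 were higher and 173 lower in LPS on the TPM scale, and 143 and 75 after scaling. In vehicle these counts were 33 and 36, and 66 and 18 after scaling.

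The replicate numbers were taken to pair the libraries in this LPS comparison alone. There all 3 same-numbered pairs deviated together (correlations of 0.103 to 0.192). The margin was narrow, since control siRNA replicate 1 and Ctbp2 siRNA replicate 3, of different number, correlated at 0.0969. The values above come from the fit without a block. With the number as a block, Il1rn had an adjusted p of 0.00288 in LPS and 414 genes were called in place of 236. Between same-numbered libraries Il1rn was higher with Ctbp2 siRNA by 0.58, 0.85 and 0.42 on the log2 scale (numbers 1, 3 and 4).

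Without a block, the Il1rn call rested on few libraries. The fits below all leave out the block, also in LPS, where the numbers were taken to pair libraries. Whether the blocked call in LPS also rests on few libraries was not tested. With number 4 left out of every group, an alternative chosen after seeing the data, the change in LPS was 0.71 (adjusted p = 0.103). In LPS its adjusted p was 0.0390 without control siRNA LPS replicate 4, but 0.0504 without Ctbp2 siRNA LPS replicate 3, where the change was 0.47. In vehicle the adjusted p was 0.0674, 0.0615 or 0.0586 without control siRNA replicate 1, 3 or 4, and 0.0588 or 0.0620 without Ctbp2 siRNA replicate 1 or 3, with changes of 0.55 to 0.69. Fitted on the compared groups alone, it was 0.185 in LPS and 0.0715 in vehicle.

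Ctbp2 siRNA was also set against Ctbp1 siRNA, which leaves the control libraries out of the difference. Il1rn was higher with Ctbp2 than with Ctbp1 siRNA in vehicle cells, 327 ± 46.8 against 214 ± 21.7 TPM, with a log2 fold change of 0.61 (adjusted p = 0.0245, with 0.617% of tested genes called). In LPS cells it averaged 314 ± 58.2 TPM with Ctbp2 siRNA and 239 ± 16.8 TPM with Ctbp1 siRNA, and the difference of 0.38 (95% confidence interval 0.14 to 0.62) missed the threshold (adjusted p = 0.0736, with 3.59% of tested genes called). It passed after scaling (0.47, adjusted p = 0.0421), which left 210 genes higher and 110 lower, where the TPM scale had 92 and 344. In vehicle the call was lost without Ctbp2 siRNA replicate 1 (adjusted p = 0.0750) or 3 (0.0867), or Ctbp1 siRNA replicate 3 (0.126) or 4 (0.125), and on the compared groups alone (0.108). Over the 6 BMDM groups, the Il1rn means ran in the order Ctbp2 vehicle, Ctbp2 LPS, Ctbp1 LPS, Ctbp1 vehicle, control vehicle and control LPS. The libraries of neighbours in that order overlapped, except between Ctbp2 LPS (276 to 381 TPM) and Ctbp1 LPS (226 to 258 TPM).

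Il1a with LPS averaged 291 ± 101 TPM with Ctbp2 siRNA and 150.4 ± 95.2 TPM with control siRNA, and the groups overlapped. Its log2 fold change was 1.18 (95% confidence interval 0.18 to 2.18, unadjusted p = 0.0241, adjusted p = 0.208). In this comparison 3 of 7 members and 17.5% of all tested genes had an unadjusted limma p under 0.05. Between same-numbered libraries Il1a was higher with Ctbp2 siRNA each time, by 0.753, 0.751 and 2.03 (numbers 1, 3 and 4), and with the number as a block the adjusted p was 0.122. Without control siRNA LPS replicate 4 alone the change was 0.46 (adjusted p = 0.523), and without number 4 in every group it was 0.75 (adjusted p = 0.166). Il1b averaged 2881 ± 483 TPM with Ctbp2 siRNA and 2018 ± 786 TPM with control siRNA, and its change of 0.59 (0.03 to 1.15, unadjusted p = 0.0404, adjusted p = 0.262) became 0.22 (adjusted p = 0.679) without that library and 0.34 (adjusted p = 0.333) without number 4 in every group. Its same-numbered differences were 0.31, 0.36 and 1.10, and with the block the adjusted p was 0.228. Il18 had −0.14 in LPS and −0.20 in vehicle cells with Ctbp2 siRNA, with adjusted p of 0.508 and 0.472. Like Il1rn, Il18 in vehicle and Il1rl1 in LPS (0.18, adjusted p = 0.653) did not overlap between Ctbp2 and control siRNA. How many of all genes lack overlap was not counted, so none is read from, here or in the other siRNA comparisons. At rest Il1a, at 0.319 TPM or less, and Il1b, at 1.63 to 2.38 TPM with Ctbp2 siRNA and 1.52 to 2.16 TPM with control siRNA, overlapped between the groups.

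Against Ctbp1 siRNA, Il1a in LPS cells was 0.96 higher with Ctbp2 siRNA on the log2 scale (adjusted p = 0.243), and Il1b 0.48 higher (adjusted p = 0.297). Neither passed the test as fitted. The same Il1a difference was called (adjusted p = 0.0298) when control siRNA LPS replicate 4, which is in neither group, was left out of the fit. Without number 4 in every group the Il1a difference was 0.99 (adjusted p = 0.0535). By number, Il1a was higher with Ctbp2 siRNA by 1.05, 0.94 and 0.88 on the log2 scale. The numbers were not taken to pair these 2 groups, so the differences are descriptive. The groups overlapped (186 to 387 against 101 to 202 TPM). For Il1b the 3 libraries with Ctbp2 siRNA, at 2423 to 3385 TPM, all lay above those with Ctbp1 siRNA, at 1808 to 2336 TPM. In LPS Il1rn, Il18bp (0.25) and Il1rl1 (0.32) were also higher without overlap, and Il1rap (−0.10) was lower without overlap. None of them was called as fitted. The share of all genes without overlap was not counted, so nothing is read from it. Il18 was lower with overlap (−0.24, adjusted p = 0.185).

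With Ctbp1 siRNA no member was called by limma, in LPS (0.0576% of tested genes called) or in vehicle (0.107%). The authors' deposited table calls 0 of the 7 members with an adjusted p in LPS and 0 of 3 in vehicle. At an unadjusted p under 0.05 there was 1 of 7 members in LPS and 0 of 7 in vehicle, against 7.34% and 8.92% of all tested genes. The one was Il18bp, at 6.19, 5.43 and 5.12 TPM with Ctbp1 siRNA and 7.31, 6.56 and 8.52 TPM with control siRNA in LPS, a change of −0.36 (adjusted p = 0.602). Il1rn in LPS averaged 239 ± 16.8 TPM with Ctbp1 siRNA and 203 ± 11.0 TPM with control siRNA, a difference of 0.24 (95% confidence interval −0.01 to 0.48, adjusted p = 0.682). Neither its libraries nor those of Il18bp overlapped between these groups. Il1a differed by 0.22 and Il1b by 0.11 with Ctbp1 siRNA in LPS, by −0.49 and −0.26 without control siRNA LPS replicate 4, and by −0.24 and −0.18 without number 4 in every group. Called genes with Ctbp1 siRNA in vehicle were 1 higher and 12 lower on the TPM scale and 10 and 9 after scaling, so directions over all genes there depend on scaling.

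Whether the LPS response itself differed between backgrounds was tested with an interaction term. No member was called by limma for Ctbp2 or Ctbp1 siRNA against control siRNA, and none had an unadjusted p under 0.05, with 0.0329% and 0% of all tested genes called. Il1a had the widest estimate, 1.08 for Ctbp2 siRNA (adjusted p = 0.787), which was 0.36 (adjusted p = 0.909) without control siRNA LPS replicate 4 and 0.55 (adjusted p = 0.858) without number 4 in every group. Il1b had 0.51, against 0.14 without that library and 0.09 without number 4. For Ctbp1 siRNA the 2 genes had 0.19 and −0.003 with all libraries, and −0.52 and −0.38 without that one. The summed macrophage markers were 12474 to 14341 TPM with Ctbp2 siRNA, 11231 to 13466 TPM with Ctbp1 siRNA and 13748 to 14563 TPM with control siRNA in LPS. The neutrophil markers summed to 117 to 213 TPM, 106 to 167 TPM and 116 to 176 TPM in the same order. Their part in the Il1rn result was not tested.

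**Figure D3:**
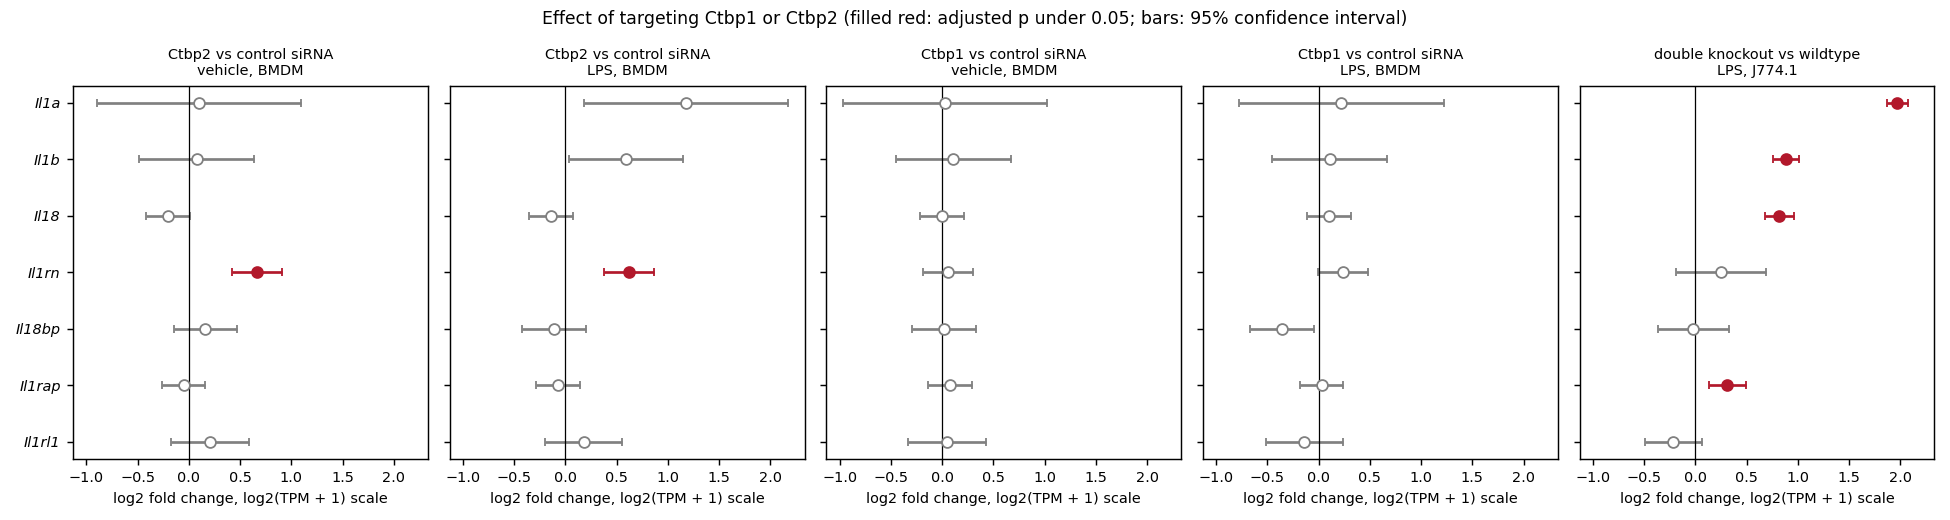
Log2 fold change of each tested member with its 95% confidence interval, on the log2(TPM + 1) scale, for Ctbp2 siRNA and Ctbp1 siRNA against control siRNA in vehicle and LPS BMDMs and for the double knockout against wildtype in J774.1 cells, with filled red points called at an adjusted p under 0.05. Il1rn is called with Ctbp2 siRNA, and Il1a, Il1b, Il18 and Il1rap in the knockout.

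In J774.1 cells the question was what loss of both paralogs does under LPS. All 3 cytokine genes rose in the double knockout, Il1a by 3.96 times, Il1b by 1.85 times and Il18 by 1.78 times, and the accessory receptor gene Il1rap rose by 1.28 times. Il1rn, the member that changed with Ctbp2 siRNA in BMDMs, was near 1 TPM in both J774.1 groups and was not called. Of 7 members tested 4 were called higher and 0 lower, at 36.1% of all 11818 tested genes called, 23% higher and 13.2% lower.

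Il1a was at 315, 346 and 334 TPM in the double knockout libraries (replicates 1, 2 and 3), against 80.4, 83.4 and 87.3 TPM in wildtype libraries. Its log2 fold change was 1.97 (SE 0.0454, adjusted p = 1.00e-07). Il1b was at 478, 557 and 536 TPM in the double knockout, against 278, 287 and 285 TPM in wildtype cells, and rose by 0.88 (SE 0.0541, adjusted p = 1.33e-05). The groups were far apart in both genes. Il18 was at 95.05, 97.0 and 95.7 TPM in the double knockout and 57.9, 48.9 and 55.2 TPM in wildtype cells, and rose by 0.82 (SE 0.0611, adjusted p = 3.77e-05). Il1rap (ENSMUSG00000022514) was at 9.14, 10.2 and 8.99 TPM in the double knockout and 7.30, 7.13 and 7.78 TPM in wildtype cells, a change of 0.31 (SE 0.0770, adjusted p = 0.0157). The Il1rap call was lost without wildtype replicate 2, with a change of 0.29 (adjusted p = 0.0539).

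Of the members not called, Il1rl1 stood out by its level: 23.1, 25.6 and 21.1 TPM in the double knockout and 32.4, 25.9 and 23.6 TPM in wildtype cells, against at most 4.09 TPM in any BMDM library of the separately normalized table. Its change was −0.21 (95% confidence interval −0.49 to 0.07, adjusted p = 0.205) and the groups overlapped, while the authors' deposited table has it lower (−0.37, adjusted p = 4.33e-08). ST2 is also a mast cell receptor, and 8 of 9 mast cell markers were listed at 0 in each J774.1 group, with sums of at most 0.0672 TPM in the double knockout and 0.0231 TPM in wildtype cells. Il1rn was at 1.90, 1.45 and 1.02 TPM in the double knockout and 0.741, 1.12 and 1.32 TPM in wildtype cells, with a change of 0.25 (adjusted p = 0.350). Il18bp was at 2.62, 3.94 and 3.11 TPM in the double knockout and 3.75, 2.75 and 3.28 TPM in wildtype cells (−0.02, adjusted p = 0.941). The overlapping gene Numa1 was at 48.1 to 56.9 TPM in J774.1 libraries, so Il18bp values are uncertain here too. Il1r2 was listed at 0 in all 6 libraries.

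Scaling kept the 4 calls: Il1a had 1.91, Il1b 0.82, Il18 0.76 and Il1rap 0.26 (adjusted p = 0.0285) after median-of-ratios scaling. All called genes of the knockout were 2713 higher and 1555 lower on the TPM scale and 2144 and 2295 after scaling. The authors' deposited table lists 1.92, 0.82, 0.80 and 0.32 for the 4 genes. Macrophage markers changed with the genotype and not in one direction. Adgre1 (F4/80) was at 15.8 TPM in the double knockout and 225 TPM in wildtype cells, whereas Csf1r was at 335 and 233 TPM, Itgam at 47.7 and 19.4 TPM and Fcgr1 at 79.8 and 25.4 TPM in the same order. The summed list was 1526 to 1637 TPM in the double knockout and 1403 to 1425 TPM in wildtype cells. Neutrophil markers summed to 3.67 to 5.00 TPM in the double knockout and 0.474 to 0.920 TPM in wildtype cells, most of it Csf3r, with 8 of 11 listed at 0 in every library. Dendritic cell markers summed to 6.02 to 9.06 TPM and 1.00 to 1.93 TPM in the same order. Itgax was the highest of them, at a mean of 6.83 TPM in the double knockout and 0.666 TPM in wildtype cells. The part of these shifts in the IL-1 results was not tested.

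The 2 experiments thus called different members. Il1rn passed with Ctbp2 siRNA in BMDMs and not in the knockout, and the 3 cytokine genes passed in the knockout and not with either siRNA. Cell line, strain, degree of loss and table differ between them, and no test of the difference was made. Il1rn was near 1 TPM in J774.1 cells. The SE of Il1a was 0.463 for Ctbp2 siRNA in LPS and 0.0454 in the knockout. The 95% confidence interval of the former (0.18 to 2.18) held the knockout value of 1.97.

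Transcript ratios within a library do not depend on scaling between libraries. Il1a made up 39.7%, 38.3% and 38.4% of the summed Il1a and Il1b TPM in double knockout libraries, against 22.5%, 22.5% and 23.4% in wildtype libraries. The means were 38.8% ± 0.800 and 22.8% ± 0.540 (SD, n = 3), and an exact two-sided permutation test gave p = 0.1, the smallest that 3 against 3 allows. In BMDMs with LPS, Il1a made up 8.97% ± 1.64 with Ctbp2 siRNA, 6.62% ± 1.34 with Ctbp1 siRNA and 6.33% ± 2.23 with control siRNA, with exact permutation p of 0.3 for Ctbp2 and 0.9 for Ctbp1 siRNA against control. Without control siRNA LPS replicate 4, at 3.81%, the control mean was 7.60%, above the Ctbp1 siRNA mean, and the exact p were 0.6 and 0.4, where 0.2 is the smallest possible. The Il1a share was thus higher in both J774.1 groups than in any BMDM LPS group, across tables normalized separately.

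Set against the antagonist, summed Il1a and Il1b TPM were 10.1 ± 0.772 times Il1rn with Ctbp2 siRNA in LPS, 9.19 ± 0.700 times with Ctbp1 siRNA and 10.7 ± 4.36 times with control siRNA. The 3 means lay within the control spread, in which replicate 4 had 5.71 and the other two 13.0 and 13.5. In vehicle cells the order was turned round, and Il1rn was 151 ± 24.3, 102 ± 31.3 and 108 ± 28.0 times the summed cytokines with Ctbp2, Ctbp1 and control siRNA. In J774.1 cells the cytokine sum was 631 ± 218 times Il1rn in the double knockout and 365 ± 105 times in wildtype cells. These 2 ranges overlapped, at 417 to 852 and 282 to 483, and rest on about 1 TPM of Il1rn. For the other pair, Il18bp was 25.4% ± 4.48 of Il18 with Ctbp2 siRNA in LPS, 17.4% ± 2.35 with Ctbp1 siRNA and 25.4% ± 6.79 with control siRNA, and 3.36% ± 0.657 in the double knockout against 6.01% ± 0.426 in wildtype J774.1 cells. These shares are as uncertain as the Il18bp values, given the overlap with Numa1.

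**Figure D4:**
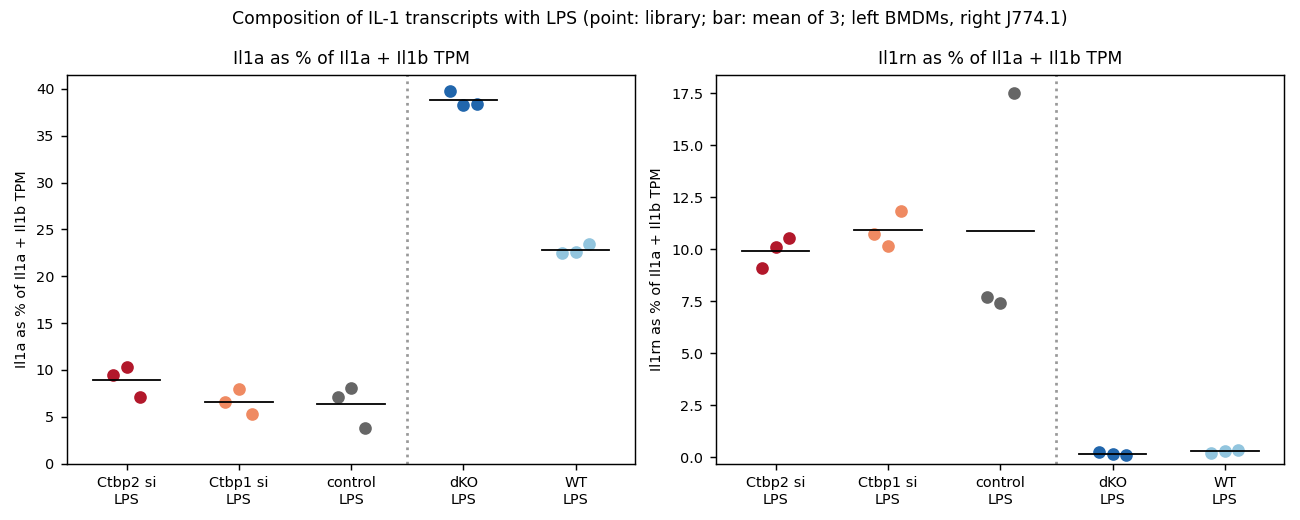
Composition of IL-1 transcripts in LPS libraries, with 1 point per library and a bar at the mean of 3, for BMDMs (left of the dotted line) and J774.1 cells (right). The left panel gives Il1a as a percentage of summed Il1a and Il1b TPM, 38.3% to 39.7% in double knockout and 22.5% to 23.4% in wildtype J774.1 cells, and the right panel gives Il1rn as a percentage of that sum, 7.40% to 17.5% in control siRNA BMDMs and at most 0.355% in J774.1 cells.

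Genes around the family were read from 4 lists chosen with earlier results of these data known, so their counts are descriptive. In control siRNA BMDMs, LPS raised 8 and lowered 3 of 13 receptor signalling genes, with a median log2 fold change of 0.33, against −0.29 for all genes, of which 18.6% were higher and 53.6% lower. After scaling the list's median was 0.64. Peli1, a ubiquitin ligase of the IRAK complex, was at 166 ± 25.8 TPM with LPS and 18.7 ± 0.752 TPM with vehicle (3.07, adjusted p = 1.18e-14). The kinase gene Irak2 was at 233 ± 8.81 and 42.0 ± 2.19 TPM (2.44), and Irak3, which encodes an inhibitory family member, at 79.2 ± 4.80 and 14.1 ± 0.741 TPM (2.41). Tab1, a partner of the kinase TAK1, was lower at 5.55 ± 1.77 TPM with LPS against 14.4 ± 0.568 TPM with vehicle (−1.27). The other two lower genes, Irak4 (−0.55) and Irak1 (−0.32), fall outside the naming rule, and Irak1 was at 0.0038 and not called after scaling, which gave 10 higher and 2 lower.

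Of 12 processing and release genes, LPS raised 7 and lowered 3, with a median of 0.43, beside the same shares over all genes. After scaling 8 were higher and 3 lower, with a median of 0.75. The inflammasome sensor gene Nlrp3 was at 534 ± 44.9 TPM with LPS and 15.3 ± 2.08 TPM with vehicle (5.04), and Casp4, whose mouse product binds LPS in the cytosol, at 184 ± 4.34 and 41.9 ± 2.14 TPM (2.11). Mefv, the pyrin gene, rose by 2.78 and Ninj1, needed for membrane rupture, by 0.80. The 3 that fell, named outside the rule, were the adaptor gene Pycard (−0.75), Nek7 (−0.50) and Casp8 (−0.47). Of the family's other receptors, the inhibitory Sigirr was at 0.503 ± 0.166 TPM with LPS and 2.22 ± 0.993 TPM with vehicle, and Il18rap was at 0.900 ± 0.0441 and 2.08 ± 0.428 TPM. Both reached the filter through their vehicle libraries and so had to be lower with LPS, and nothing is read from their calls. The signalling chain gene Il1r1 was at 0.163 TPM or less in every BMDM library and 0.0275 TPM or less in J774.1 cells, and Il18r1 at 0.112 TPM or less in both. Of 27 listed genes tested, Ctbp2 siRNA in LPS lowered Irak4 (−0.29, adjusted p = 0.0376) and Casp8 (−0.23, adjusted p = 0.0365) against control siRNA. Over all tested genes 1.94% were called there, 63 higher and 173 lower. Irak4 and Casp8 were not called after scaling (adjusted p = 0.108 and 0.142). Against control siRNA no listed gene was called with Ctbp2 siRNA in vehicle or with Ctbp1 siRNA. The shares of all tested genes called were 0.568% for Ctbp2 siRNA in vehicle, and 0.107% in vehicle and 0.0576% in LPS for Ctbp1 siRNA. At an unadjusted p under 0.05, there were 3 of 27 with Ctbp2 siRNA in LPS, against 17.5% of all tested genes. There were 5 with Ctbp2 siRNA in vehicle, 4 with Ctbp1 siRNA in vehicle and 1 with Ctbp1 siRNA in LPS. The shares of all tested genes were 11.5%, 8.92% and 7.34% in that order. Against Ctbp1 siRNA, Ctbp2 siRNA cells had lower Casp8 in LPS (−0.31, adjusted p = 0.00768, and 0.0316 after scaling) and higher Ninj1 in vehicle (0.27, adjusted p = 0.0158, and 0.0124 after scaling). In LPS the Ninj1 difference of 0.18 was called after scaling only (adjusted p = 0.0546 on the TPM scale and 0.0125 after scaling).

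In the double knockout, 7 of 8 tested processing genes were higher and 1 lower, with a median of 0.49 against 0.05 for all genes, of which 23% were higher and 13.2% lower. Casp1, which encodes the caspase that cuts IL-1β and IL-18, was at 55.0 ± 1.94 TPM in the double knockout and 27.2 ± 0.941 TPM in wildtype cells (0.99, adjusted p = 3.58e-06). Casp4 (0.60), Casp8 (0.59) and the pore-forming gasdermin gene Gsdmd (0.58) were higher too, and Nlrp3 was lower at 199.5 ± 6.04 against 232 ± 8.91 TPM (−0.21). Pycard was listed at 0 in all J774.1 libraries, which can be no transcript or a failed estimate, and was at 52.0 TPM in control siRNA BMDMs with LPS. Of 13 signalling genes 6 were higher and 2 lower, with Tab1 (0.42), Tab2 (0.40) and Myd88 (0.36) higher and Tollip (−0.40), an inhibitor of IRAK signalling, lower. After scaling 5 were higher, since Irak1 lost its call. Sigirr was at 3.25 ± 0.0841 TPM in the double knockout and 1.34 ± 0.331 TPM in wildtype cells (0.87), Il18rap at 19.2 ± 0.372 and 13.2 ± 0.495 TPM (0.51), and the cytokine gene Il36g at 1.54 ± 0.187 and 0.666 ± 0.0627 TPM. Il36g reached the filter through its double knockout libraries and so had to be higher there, and its call is not read as a result. Il33, whose product is the ST2 ligand, did not reach the filter and was at 0.284 ± 0.0543 TPM in the double knockout and 0.896 ± 0.277 TPM in wildtype cells.

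**Figure D5:**
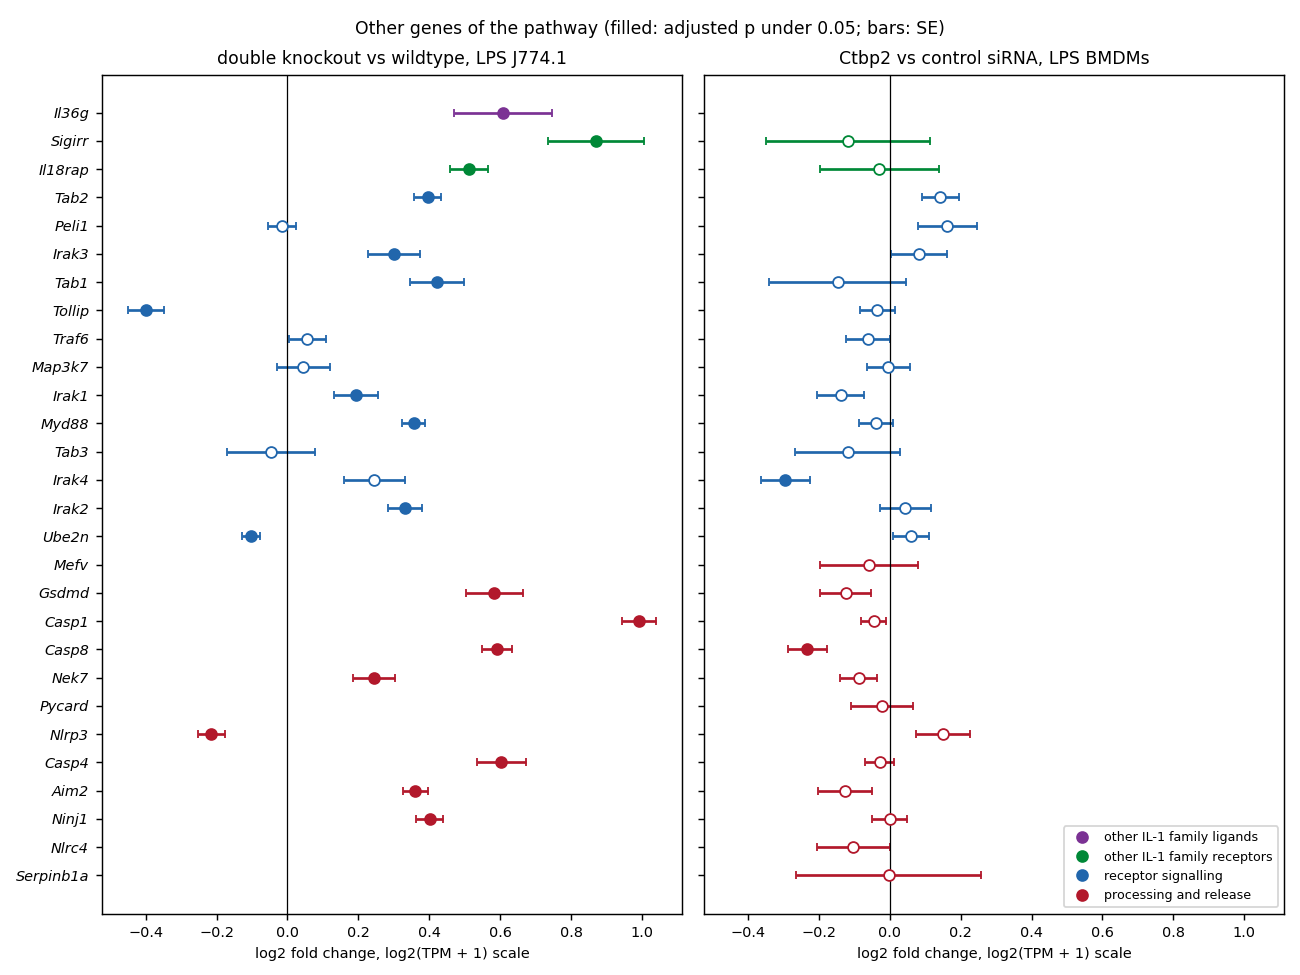
Log2 fold change with its SE, on the log2(TPM + 1) scale, of the listed genes of the IL-1 pathway, for the double knockout against wildtype in J774.1 cells (left) and Ctbp2 siRNA against control siRNA in LPS BMDMs (right), coloured by list and filled where the adjusted p was under 0.05. In the knockout panel Casp1 is the highest point (0.99) and Tollip the lowest (−0.40), while the siRNA panel has filled points at Irak4 (−0.29) and Casp8 (−0.23).

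Genes whose profile was most like each member over the 18 BMDM libraries were found by Pearson r of log2(TPM + 1), given as a description, since these libraries share the LPS contrast. Il1b was closest to Cxcl3, a neutrophil attractant (r = 0.9995), then Tmem200b and Mir155hg. Il1a was closest to Edn1 (r = 0.999), then the cytokine genes Csf2 and Il12b. Il18 was closest to Tbc1d1 (r = 0.989), then Rab12 and Bmt2, both at r = 0.988. Il1rn, with little LPS change on the TPM scale, was closest to Slamf9 (r = 0.907), followed by the chemokine gene Ccl8 (r = 0.847) and the interferon-induced gene Ifitm3 (r = 0.796). With Ctbp2 siRNA, Slamf9 differed from control siRNA by 0.42 in LPS and 0.82 in vehicle on the log2 scale. Ccl8 differed by 0.65 and 0.67, and Ifitm3 by 0.21 and 0.34, in the same order. These genes were picked for likeness to Il1rn over the same libraries, which include the Ctbp2 siRNA ones. Such differences can follow from that choice, and nothing is read from them.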

How the data were processed

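Polyadenylated RNA of 24 libraries was sequenced after an unstranded library preparation, per the labels' protocols. Per the file headers, the BMDM table holds gene-level scaled TPM made by the authors with Salmon on mm39. The header of the J774.1 table names no unit, aligner or build, and its deposited values were taken as TPM because each library sums to 999503 to 999526. Per the submitters' processing notes, FastQC, Salmon 1.9.0, DESeq2 1.44.0 and R 4.4.1 were used, and 3 build names are given (mm39, GRCm38, GRCm39). The deposited tables also hold the authors' mean normalized counts, a signal averaged over libraries that was not used here, and their p-values, raw and adjusted, and log2 fold changes, which are quoted only as theirs. The BMDM table has 22996 genes, and that of J774.1 holds 54661 lines for 54380 identifiers, of which 190 recur.

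The values were fitted with limma 3.58.1 in R 4.3.3 (lmFit and eBayes, robust and with a trend) as log2(TPM + 1), for genes whose mean over the fit reached 1 TPM. All 18 BMDM libraries entered 1 fit, by group, and the 6 of J774.1 another. Calls were made at an adjusted p under 0.05 (Benjamini-Hochberg, over all tested genes of each of 12 comparisons). The fits were tested on simulated data. Ratios within libraries were compared by exact permutation. Alternatives were a pseudocount of 0.1 TPM, a minimum mean of 10 TPM, no filter, median-of-ratios scaling, a replicate block, only the groups compared, each library left out in turn, and, added after seeing the data, number 4 left out of every BMDM group. Each alternative was run alone, so no fit with libraries left out had the block. The labels do not say what a replicate number shares. Numbers were taken to pair libraries only where every same-numbered pair of the groups compared had correlated deviations from the group means (over 0.1, among genes of 10 TPM or more), which held in 1 of 10 comparisons of 2 groups, Ctbp2 against control siRNA in LPS.

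The members, lists, markers and tests were chosen with earlier results of these data known. All 7 members that passed the filter were tested in each comparison, and those without printed values were not called there on the TPM scale. Ctbp1 and Ctbp2 served as a check of the labels. Of each list up to 4 called genes with the largest absolute change were eligible, along with the 3 genes most like each member whose mean reached 10 TPM. Marker genes and genes of the overlapping exons were named outside that rule. So were some list genes, among them Irak1, Irak4, Pycard, Nek7 and Casp8 with LPS. Nlrp3, Irak1 and Pycard in the knockout, and the untested Il1r1, Il18r1 and Il33, were also named outside it. Promoters are RefSeq windows on GRCm38.p6 and overlapping exons come from GENCODE vM21, and no coordinate was taken from mm39.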

Additional observations from a re-analysis of the deposited data

How the results depend on the processing

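Over the 12 comparisons, the sign and call of each tested member stayed as reported with a minimum mean of 10 TPM (48 values) and with no filter (84 values). With a pseudocount of 0.1 TPM (84 values) no call changed and 2 uncalled values changed sign. With median-of-ratios scaling 78 of 84 values kept their call, 4 gained one and 2 reversed: Il1rn with LPS had 0.31 in control siRNA and 0.30 in Ctbp2 siRNA cells. The cause of these changes was not tested beyond the shift of all genes given above. Il1rn gave the calls lost on the compared groups alone, where fewer samples enter, so that 0 members were called for Ctbp2 siRNA against control siRNA in LPS and vehicle and against Ctbp1 siRNA in vehicle. Of 1428 values with 1 library left out, 1414 kept their call, 11 lost it and 3 gained it. Those gained were Il18bp with LPS in control siRNA cells without Ctbp2 siRNA vehicle replicate 3 (adjusted p = 0.0294) or 4 (0.0407), and Il1a given above.

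Over all groups, 21 of 45 same-numbered BMDM pairs of libraries correlated above 0.1 (−0.15 to 0.32, median 0.09), against 4 of 90 pairs of different number (median −0.03), and 1 of 3 J774.1 pairs (−0.03 to 0.16). With the replicate block, the counts of called genes were 414 for Ctbp2 siRNA against control siRNA in LPS and 155 in vehicle, and 821 for Ctbp2 against Ctbp1 siRNA in LPS and 143 in vehicle. Under the block 1 member was called for Ctbp2 against Ctbp1 siRNA in LPS, Il1rn (0.38, adjusted p = 0.0282), as also after scaling (1 member), and no other member's call changed under the block.

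All-gene counts as reported were 236 and 69 for Ctbp2 siRNA against control siRNA in LPS and vehicle, 7 and 13 for Ctbp1 siRNA, 436 and 75 for Ctbp2 against Ctbp1 siRNA, 4 and 0 for the Ctbp2 and Ctbp1 interactions, and 4268 for the knockout. With no filter they were 132 and 45 for Ctbp2 siRNA in LPS and vehicle, 227 for Ctbp2 against Ctbp1 siRNA in LPS, and 0 and 2 for the interactions. A minimum of 10 TPM gave 12 for Ctbp1 siRNA in LPS and 8 and 1 for the interactions. A pseudocount of 0.1 TPM gave 2 for the Ctbp1 interaction, and scaling gave 2 for the Ctbp2 interaction. With number 4 left out of every group, chosen after seeing the data, they were 27 for Ctbp2 siRNA in LPS (0 members), 96 for Ctbp2 against Ctbp1 siRNA in LPS and 8 for the Ctbp2 interaction. On the compared groups alone they were 4 and 22 for Ctbp2 siRNA, 2 for Ctbp1 siRNA in LPS, 52 and 32 for Ctbp2 against Ctbp1 siRNA, and 1 and 3 for the interactions. The limma count of 0 for the Ctbp1 interaction stands beside 506 genes higher and 256 lower at an unadjusted p under 0.05.

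With 1 library left out, counts ran 66 to 295 and 4 to 105 for Ctbp2 siRNA in LPS and vehicle, 6 to 83 and 5 to 38 for Ctbp1 siRNA, 117 to 1050 and 25 to 121 for Ctbp2 against Ctbp1 siRNA (0 to 1 member in each of the comparisons with Ctbp2 siRNA), 0 to 13 and 0 to 4 for the Ctbp2 and Ctbp1 interactions, and 3493 to 3856 for the knockout (3 to 4 members). For LPS they ran 8572 to 9082, 8075 to 8672 and 8290 to 8814 in Ctbp2, Ctbp1 and control siRNA cells (4 to 5 members in the last). The highest counts of the siRNA comparisons, 295 apart, came without control siRNA LPS replicate 4. The lowest for Ctbp2 siRNA came without Ctbp2 siRNA LPS replicate 3 and control siRNA vehicle replicate 3, and those against Ctbp1 siRNA without Ctbp1 siRNA replicate 4 of LPS and of vehicle. Depth is unknown, so low genes such as Il1r2 carry no counting limit here.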

Other observations

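In each of the 3 BMDM groups with LPS, replicate 3 had the highest and replicate 4 the lowest Il1a and Il1b of its group. For Il1a these were 387 and 186 TPM with Ctbp2 siRNA, 202 and 101 TPM with Ctbp1 siRNA, and 229.8 and 44.8 TPM with control siRNA. For Il1b they were 3385 and 2423 TPM, 2336 and 1808 TPM, and 2630.1 and 1131 TPM in the same order. The labels do not say what a replicate number shares, and the pattern was seen in the data and not tested.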
